A study of Mus musculus with 8 samples.

Results

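The genes described are 32 genes of sterol synthesis and cholesterol handling, followed in livers with more or less Ube3a. They were taken by name, along the enzyme order from acetyl-CoA to cholesterol, together with the genes that control the transcription factor SREBP2 and 5 genes that move, esterify or sense sterols. All 32 were present among the 13774 genes measured for the transgenic comparison and among the 11773 genes measured for the heterozygous comparison.

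Cholesterol is built from acetyl-CoA through mevalonate, isoprenoid diphosphates, squalene and lanosterol. When sterol in the endoplasmic reticulum is scarce, SCAP carries the membrane-bound precursor of SREBP2 to the Golgi, where a pair of proteases release the active factor, which raises transcription of nearly every enzyme of the route. INSIG1 and INSIG2 hold SCAP back when sterol is plentiful. The liver is a main site of this synthesis, and it also feeds cholesterol into lipoproteins, cholesteryl esters and bile acids.

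RNA-seq was done on livers of C57BL/6 mice that had all eaten a 42% high-fat diet for 8 weeks. The Ube3a TG mice were homozygous for a transgene that overexpresses Ube3a, a HECT-type ubiquitin ligase, and the Ube3a het mice carried 1 knockout and 1 wild-type Ube3a allele. Each mutant group had 2 libraries and was set against its own 2 wild-type (WT) libraries, which gave 8 libraries in 4 groups. Not given in the sources used here are the promoter of the transgene, the sex and age of the mice, and whether each library was made from its own animal, so the p-values measure only the spread between these libraries. The question put by the design is how the liver transcriptome differs between each mutant and WT after the diet. A value below is a normalised read count, that is, the reads of a gene divided by 1 factor per library. The transgenic and heterozygous tables were normalised separately and differ in depth, so a level is compared only within its own table.

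Ube3a itself followed the labels in direction. By limma, as used below, it had an adjusted p of 0.0586 in TG and 0.129 in het, neither under 0.05. It had 5991 and 5938 normalised reads in the TG livers, against 1187 and 1359 in their WT livers, and 301 and 280 in the het livers, against 369 and 409 in their WT livers. Libraries held 44193275 to 47928229 counted reads in the transgenic table and 13171145 to 17748088 in the heterozygous table. Of 10 hepatocyte markers 9 were measured, and together they took 8.63% to 10.9% of each library, whereas the 11 Kupffer cell markers took at most 0.0792% and the 12 endothelial markers at most 0.0488%. Genes of low counts were not listed, as the smallest mean was 11.2 normalised reads in the transgenic table and 17.8 in the heterozygous table. Markers of scarcer cell types were therefore partly unmeasured. The heterozygous table held 1 of 5 cholangiocyte, 3 of 6 lymphocyte and 1 of 4 neutrophil markers. The transgenic table held all 5, all 6 and 2 of 4. In whole liver RNA, fewer cells of a type and less RNA per cell cannot be told apart.

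The letters upstream of the genes give a first view of what they share. RefSeq promoters on GRCm38.p6 were matched for 26 of the 32 genes, and the 250 bases before each start were searched on both strands for the core of the sterol regulatory element (TCACNCCAC), for the same core without its last base (TCACNCCA, chosen after the longer form had matched 1 gene), for CCAAT, the letters bound by NF-Y, and for GGGCGG, the letters bound by Sp1. Every match of the longer core is also a match of the shorter one. CCAAT stood upstream of 21 of the 26 genes (80.8%), against 37.5% of all 27025 genes with a RefSeq promoter. That background was not limited to genes measured in these livers. The part of liver expression in these contrasts was not tested. GGGCGG stood upstream of 23 of the 26 (88.5%), against 35.4% of all genes. The shorter core stood upstream of Srebf2, Hmgcs1 and Msmo1, 11.5% of the 26 against 4.20% of all genes, and the longer one upstream of Hmgcs1 alone, against 1.22% of all genes. A match is a description of letters and not a binding site. Hmgcs1 is shown because it passed the test in het liver, Srebf2 because it encodes SREBP2, and Insig2 because its values ran opposite ways in the 2 mutants. Capitals mark TCACNCCA and CCAAT on either strand. The stretches lie at chr13:119690174-119690281 (plus strand) for Hmgcs1, chr15:82147067-82147174 (plus strand) for Srebf2 and chr1:121332594-121332745 (minus strand) for Insig2, all upstream of the gene as GENCODE M21 annotates it.
Hmgcs1: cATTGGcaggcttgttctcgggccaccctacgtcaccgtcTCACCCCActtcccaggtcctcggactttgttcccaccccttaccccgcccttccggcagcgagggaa
Srebf2: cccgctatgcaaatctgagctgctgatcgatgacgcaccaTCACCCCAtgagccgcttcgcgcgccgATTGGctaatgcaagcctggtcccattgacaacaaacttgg
Insig2: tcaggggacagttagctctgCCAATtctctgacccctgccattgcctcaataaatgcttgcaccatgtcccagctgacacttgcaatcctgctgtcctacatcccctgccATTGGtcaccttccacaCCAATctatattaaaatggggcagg

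In GENCODE M21 on GRCm38 the whole genes span chr13:119690379-119708260 for Hmgcs1, chr15:82147181-82205379 for Srebf2 and chr1:121304353-121332589 for Insig2. Counted from the starts in the RefSeq promoter table, which differ from the GENCODE ones, the core begins 137 bases upstream for Hmgcs1 and 162 bases upstream for Srebf2. The stretch shown for Hmgcs1 holds 1 CCAAT and that for Srebf2 also 1, while the stretch for Insig2 holds 3 CCAAT and no core.

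The sterol genes were high in 1 of the 2 transgenic libraries. With limma, and a call meaning a p under 0.05 after Benjamini-Hochberg adjustment over all genes, there were calls between TG and WT livers for 0 of the 32 genes and for 0 of all 13774 genes (0.0% of genes tested). Ube3a, 4.69-fold higher in TG livers on the means, was not called by limma either. DESeq2 did call Ube3a (adjusted p = 4.92e-34), while edgeR (adjusted p = 0.0880) and voom (adjusted p = 0.114) did not. At an unadjusted p under 0.05 by limma, 4 of the 32 passed. Of all 13774 genes 9.12% met it in either direction, 710 of them higher and 546 lower. The 4 sterol genes all had higher means in TG: Srebf2, Fdft1, Hsd17b7 and Stard4. The log2 fold change was above 0 for 29 of the 32, with a median of 0.55 where the median of all genes was 0.00. That median joins unlike libraries: the median difference from the WT mean was 0.93 on the log2 scale in TG replicate 1 and 0.04 in TG replicate 2. Added up, the 32 genes took 0.481% of the library in TG replicate 1 and 0.227% in TG replicate 2, against 0.254% and 0.243% in the WT libraries.

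**Figure D1:**
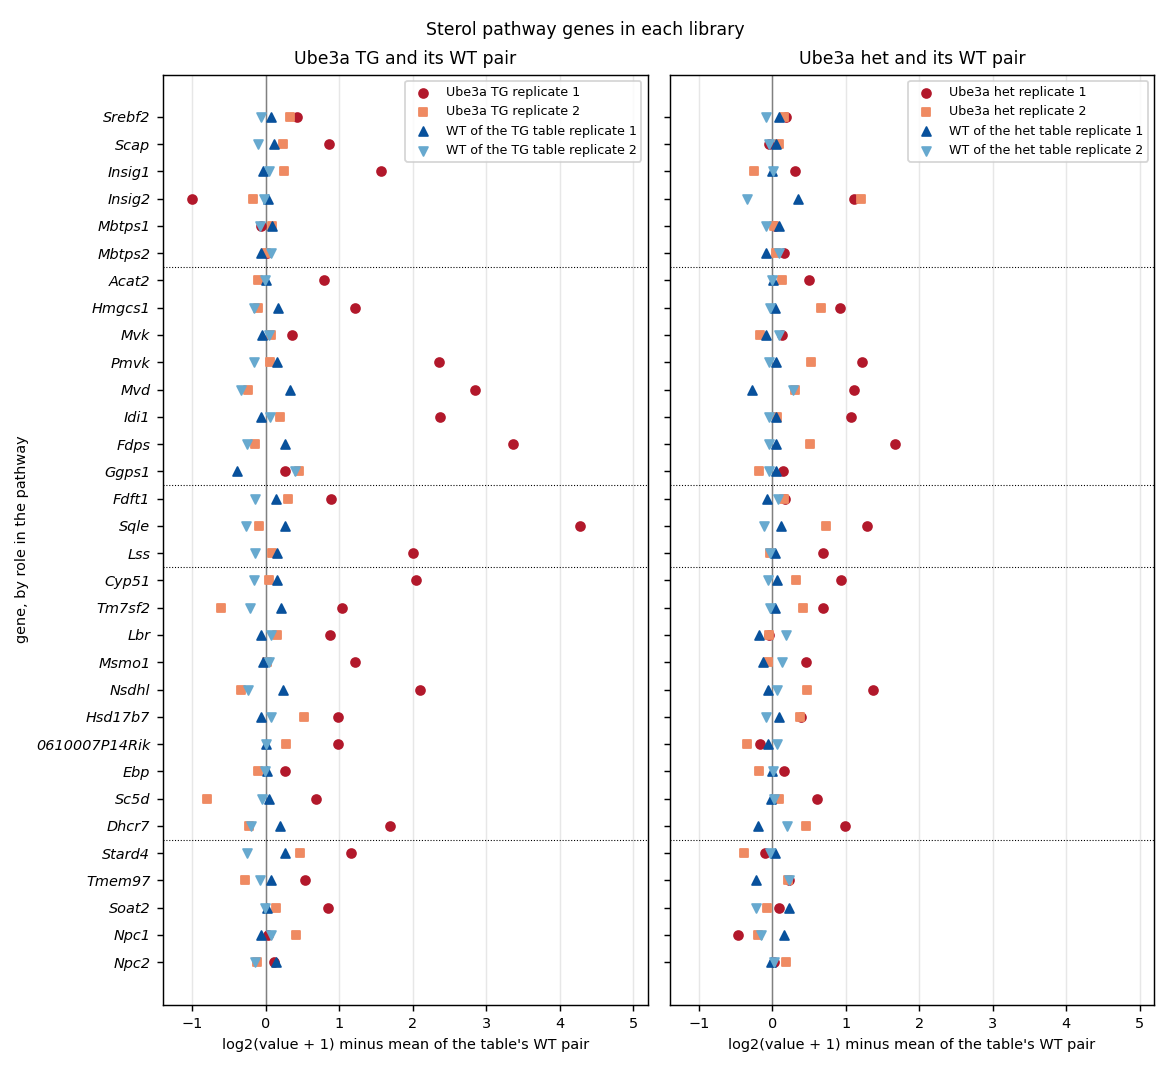
Each row is 1 gene, and the x axis gives log2(value + 1) minus the mean of the WT pair of the same table, for the 2 mutant libraries and the 2 WT libraries; dotted lines separate the role groups. TG replicate 1 stands far to the right for most enzymes (4.27 for Sqle), while TG replicate 2 stays near the WT libraries; the het libraries stand modestly to the right.

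TG replicate 1 lay above both WT libraries for 26 of the 32 genes, where it did for 38.2% of all genes, and below both for 1, where it did for 39.2%. TG replicate 2 lay above both for 14, where it did for 36.0% of all genes, and below both for 8, where it did for 35.2%, so its counts were nearer to those of all genes. The pair of TG libraries stood more than 2-fold apart for 14 genes, always with replicate 1 higher, or 43.8% of the 32, where replicate 1 was more than 2-fold above replicate 2 for 4.12% of all genes. None of the 32 differed by more than 2-fold between the WT libraries. Both TG libraries were above both WT libraries for 11 of the 32 genes, where they were for 21.8% of all genes, and both were below for 1, Insig2, where they were for 21.6% of all genes.

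Of the 6 genes that control SREBP2, 1 stood more than 2-fold apart between the TG libraries. Srebf2, the gene of SREBP2, had 2496 and 2329 normalised reads in TG livers, against 1945 and 1764 in WT livers. Both TG values were above both WT values, by 1.30-fold on the means (log2 fold change 0.38, SE 0.12, unadjusted p = 0.0250, adjusted p = 0.526 by limma). Scap, the escort of SREBP2, had 8207 and 5319 reads in TG livers, against 4885 and 4191 in WT livers, again without overlap (log2 fold change 0.55, SE 0.24, adjusted p = 0.568 by limma). The proteases that release SREBP2, encoded by Mbtps1 and Mbtps2, had log2 fold changes of 0.01 and 0.01, with overlapping groups.

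The INSIG genes, which encode the anchors that retain SCAP, went separate ways in TG replicate 1. Insig1, itself a target of SREBP2, had 40221 and 16076 reads in TG livers, against 13217 and 14006 in WT livers. TG replicate 1 was 2.95-fold above the WT mean and TG replicate 2 1.18-fold above it (log2 fold change 0.90, SE 0.46, adjusted p = 0.602 by limma). Insig2, whose main liver transcript is known to be lowered by insulin and not to depend on SREBP2, had 3216 and 5730 reads in TG livers, against 6580 and 6323 in WT livers. Both TG values were below both WT values, TG replicate 1 by more (0.498 of the WT mean) than TG replicate 2 (0.888 of it), and the log2 fold change of -0.59 (SE 0.29) did not pass (adjusted p = 0.596 by limma).

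From acetyl-CoA to the isoprenoid diphosphates, 5 of 8 enzymes stood more than 2-fold apart between the TG libraries. Fdps, which makes farnesyl diphosphate, had 12182 and 1071 reads in TG livers, against 1418 and 984 in WT livers. TG replicate 1 was 10.1-fold above the WT mean, and TG replicate 2 lay between the WT values. Mvd, the mevalonate diphosphate decarboxylase, had 2294 and 269 reads in TG livers, against 402 and 253 in WT livers. Pmvk, the phosphomevalonate kinase, had 4781 and 970 reads in TG livers, against 1042 and 841 in WT livers. For both, as for Fdps, TG replicate 1 was the only high library, at 7.01-fold the WT mean for Mvd and 5.08-fold for Pmvk, and TG replicate 2 fell between the WT values.

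Idi1, the isopentenyl diphosphate isomerase, had 2142 and 471 reads in TG livers, against 395 and 430 in WT livers. Here both TG libraries were above both WT libraries, but by 5.19-fold of the WT mean in replicate 1 and 1.14-fold in replicate 2. Hmgcs1, whose enzyme condenses acetyl-CoA and acetoacetyl-CoA into HMG-CoA, had 12747 and 5097 reads in TG livers, against 6149 and 4914 in WT livers. TG replicate 1 was 2.30-fold above the WT mean and TG replicate 2 between the WT values, so that the groups overlapped (log2 fold change 0.55, SE 0.48, adjusted p = 0.735 by limma). Mvk, the mevalonate kinase, had 555 and 455 reads in TG livers, against 421 and 449 in WT livers. Ggps1, which lengthens farnesyl to geranylgeranyl diphosphate, had 234 and 267 reads in TG livers, against 148 and 258 in WT livers. These last 2 genes showed little of the gap: TG replicate 1 was 1.28-fold above the WT mean for Mvk, and for Ggps1 it was below TG replicate 2 and between the WT values. Acat2, the acetoacetyl-CoA thiolase, was 1.74-fold above the WT mean in TG replicate 1 and 0.928 of it in TG replicate 2.

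Sqle, the squalene epoxidase and a rate-limiting enzyme of the later route, had 2908 and 140 reads in TG livers, against 180 and 124 in WT livers. TG replicate 1 was 19.1-fold above the WT mean and ranked 12 among 13770 genes by its difference from the WT mean, while TG replicate 2 lay between the WT values. The mean log2 fold change of 2.09 therefore had an SE of 1.69 (adjusted p = 0.724 by limma). Fdft1, the squalene synthase, had 5448 and 3653 reads in TG livers, against 3258 and 2679 in WT livers. Its TG and WT values did not overlap, with a log2 fold change of 0.59 and an SE of 0.23 (unadjusted p = 0.0482, adjusted p = 0.544 by limma). Lss, which closes the rings to lanosterol, had 6535 and 1723 reads in TG livers, against 1799 and 1465 in WT livers, with 1 high library once more (4.0-fold above the WT mean).

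All 10 genes from lanosterol to cholesterol were higher in TG replicate 1 than in both WT libraries and higher than in TG replicate 2, 6 of them by more than 2-fold over TG replicate 2. Nsdhl, a demethylating sterol dehydrogenase, had 3395 and 627 reads in TG livers, against 937 and 672 in WT livers. Cyp51, the lanosterol demethylase, had 4758 and 1180 reads in TG livers, against 1283 and 1031 in WT livers. Dhcr7, the last reductase of one branch to cholesterol, had 5356 and 1414 reads in TG livers, against 1908 and 1452 in WT livers. TG replicate 1 stood at 4.22-fold, 4.11-fold and 3.19-fold the WT mean for Nsdhl, Cyp51 and Dhcr7, while TG replicate 2 was below both WT values for Nsdhl and Dhcr7 and between them for Cyp51.

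The sterol reductases of the C14 step split. Tm7sf2 had 5511 and 1756 reads in TG livers, against 3111 and 2315 in WT livers. Its TG libraries lay on either side of the WT pair, at 2.03-fold and 0.647 of the WT mean. Lbr, whose product is also an anchor of the nuclear lamina, had 976 and 591 reads in TG livers, against 509 and 557 in WT livers, without overlap (log2 fold change 0.51, SE 0.26, adjusted p = 0.598 by limma). Sc5d, the lathosterol oxidase, had the same shape as Tm7sf2, at 1.61-fold the WT mean in TG replicate 1 and 0.573 of it in TG replicate 2.

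Hsd17b7, the sterol ketoreductase, had 3703 and 2693 reads in TG livers, against 1789 and 1978 in WT livers. It had the smallest p of the 32 genes in TG (log2 fold change 0.75, SE 0.19, unadjusted p = 0.00903, adjusted p = 0.495 by limma), with both TG libraries above both WT libraries. 0610007P14Rik, listed in RefSeq under the name Erg28, a scaffold of the C4 demethylation enzymes in yeast, had 5064 and 3090 reads in TG livers, against 2561 and 2568 in WT livers. Its WT values were nearly equal and both TG values were above them (log2 fold change 0.63, SE 0.25, adjusted p = 0.555 by limma). Msmo1, the C4 methyl oxidase, and Ebp, the sterol isomerase, stood at 2.32-fold and 1.20-fold the WT mean in TG replicate 1 and at 1.01-fold and 0.932 of it in TG replicate 2.

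Of the handling genes, Stard4, a soluble sterol carrier, had 4476 and 2773 reads in TG livers, against 2401 and 1668 in WT livers. The groups did not overlap (log2 fold change 0.82, SE 0.30, unadjusted p = 0.0448, adjusted p = 0.542 by limma). Soat2, which esterifies cholesterol in hepatocytes, had 3554 and 2166 reads in TG livers, against 1997 and 1949 in WT livers, also without overlap. Npc1, the lysosomal cholesterol exporter, had 8529 and 11157 reads in TG livers, against 7962 and 8784 in WT livers. It was among 4 of the 32 genes with the higher value in TG replicate 2. The others of those 4 were Insig2, Mbtps1 and Ggps1. Npc2, the soluble partner of NPC1, and Tmem97, a sterol-regulated membrane protein that binds NPC1, overlapped between the groups, with log2 fold changes of -0.01 and 0.13.

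The size of the effect in TG liver turned on 1 library. Without TG replicate 1 the median log2 fold change of the 32 genes was 0.04, against 0.93 without TG replicate 2. Each such fit leaves 1 TG library, so the spread between TG libraries cannot be measured in it. Ube3a was alike in the 2 TG libraries. The Kupffer cell markers were not: all 11 were lower in TG replicate 1 than in TG replicate 2, with sums of 19388 and 26732 reads in TG livers, against 32544 and 30333 in WT livers. All 12 endothelial markers had lower means in TG livers, with sums of 18218 and 17997 reads, against 21876 and 21799 in WT livers, and 0 were called. Of 10 stellate cell markers 9 were higher in TG replicate 1 than in TG replicate 2, with sums of 29858 and 22437 reads in TG livers, against 23975 and 25075 in WT livers. Of 9 measured hepatocyte markers 5 were higher in TG replicate 1 than in TG replicate 2. The TG libraries stood more than 2-fold apart for 2 of the 9, both lower in replicate 1, where 7.38% of all genes were more than 2-fold apart. The part of these marker lists in the sterol result was not tested.

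In het liver most of the 32 genes had values modestly above WT, and 1 passed the test. Hmgcs1 had 2073 and 1732 normalised reads in het livers, against 1119 and 1063 in WT livers. Both het values were well above both WT values, and the gene rose by 1.74-fold on the means (log2 fold change 0.80, SE 0.11, adjusted p = 0.0165 by limma). It was 1 of 32, or 3.13%, where 1.44% of all 11773 genes were called and 0.892% were called higher. The adjusted p of Hmgcs1 ran from 6.24e-05 to 0.589 over 16 alternatives and stayed under the threshold in 13 of them. The exceptions were the fit of all 8 libraries together (0.589), the fit that left out het replicate 1 (0.0967) and the fit that left out the first WT library of the het table (0.0657). In the joint fit the TG effect on Hmgcs1 minus the het effect was -0.24 on the log2 scale (SE 0.57, 95% interval -1.64 to 1.15, adjusted p = 0.867 by limma), so the mutants were not shown to differ for this gene.

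The log2 fold change was above 0 for 25 of the 32 genes in het liver, with a median of 0.21 where the median of all genes was -0.00074. At an unadjusted p under 0.05, 9 of the 32 passed as higher and 2 as lower. Of all 11773 genes 14.7% met it in either direction, 1010 of them higher and 719 lower. Both het libraries were above both WT libraries for 17 of the 32 (24.3% of all genes were) and below both for 3 (23.7% of all genes were). The median difference from the WT mean was 0.34 in het replicate 1 and 0.11 in het replicate 2 on the log2 scale. Het replicate 1 was higher than het replicate 2 for 28 of the 32 genes, but by more than 2-fold only for Idi1 and Fdps, where 0.654% of all genes were.

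**Figure D2:**
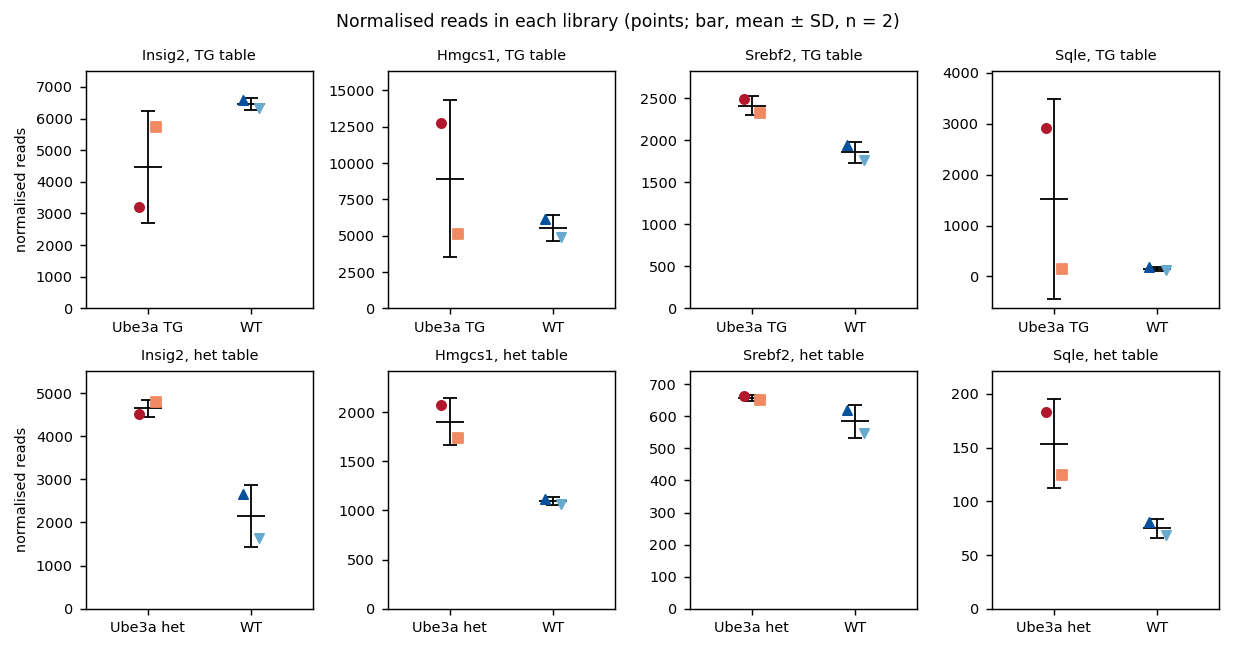
Normalised reads of 4 genes in each library, with the transgenic table above and the heterozygous table below; points are libraries (circle and upward triangle, replicate 1; square and downward triangle, replicate 2), the horizontal bar is the group mean and the whiskers are 1 SD (n = 2). Hmgcs1 and Sqle are high in 1 TG library, Insig2 is below WT in both TG libraries and above WT in both het libraries, and Srebf2 is above WT in all 4 mutant libraries.

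Insig2 was higher in both het livers. It had 4511 and 4785 reads in het livers, against 2651 and 1635 in WT livers. Its het values were close together and its WT values were 1.62-fold apart, and the ratio of means was 2.17 (log2 fold change 1.16, SE 0.24, unadjusted p = 0.00557, adjusted p = 0.132 by limma). Taken singly, het replicate 1 stood 1.11 and het replicate 2 stood 1.20 above the WT mean on the log2 scale. Insig1 was not parallel to Insig2, with 2997 and 2052 reads in het livers, against 2424 and 2440 in WT livers.

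Of the other SREBP2 control genes, Srebf2 had 664 and 651 reads in het livers, against 620 and 548 in WT livers. The groups did not overlap, but the log2 fold change was 0.17 with an SE of 0.10 (adjusted p = 0.478 by limma). Scap had 1405 and 1538 reads in het livers, against 1507 and 1400 in WT livers, with overlap. Mbtps1 and Mbtps2 overlapped as well, with log2 fold changes of 0.03 and 0.10.

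Among the enzymes of the mevalonate steps, 6 of 8 had both het libraries above both WT libraries, where 24.3% of all genes did. Pmvk had 627 and 389 reads in het livers, against 278 and 260 in WT livers (log2 fold change 0.87, SE 0.23, unadjusted p = 0.0127, adjusted p = 0.200 by limma). Fdps had 1272 and 568 reads in het livers, against 411 and 384 in WT livers. Idi1 had 232 and 115 reads in het livers, against 114 and 107 in WT livers. As in TG liver, replicate 1 was the higher library for each of these 3 genes, at 2.33-fold, 3.20-fold and 2.10-fold the WT mean for Pmvk, Fdps and Idi1.

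Mvd had 159 and 90.9 reads in het livers, against 60.5 and 89.2 in WT livers. Its het replicate 2 and the higher WT value could not be told apart at this depth. Mvk had 128 and 104 reads in het livers, against 110 and 124 in WT livers, and Ggps1 had 78.4 and 62.1 reads in het livers, against 73.1 and 68.7 in WT livers. Both overlapped, and they were also the mevalonate genes with the smallest gaps above WT in TG replicate 1. Acat2 was 1.25-fold higher on the means in het livers and did not overlap with WT.

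Sqle had 183 and 124 reads in het livers, against 80.9 and 68.7 in WT livers. Both het values were above both WT values, with a 2.05-fold ratio of means that just missed the threshold (log2 fold change 1.01, SE 0.22, adjusted p = 0.0734 by limma). Fdft1 had 1096 and 1081 reads in het livers, against 922 and 1029 in WT livers, and Lss had 688 and 419 reads in het livers, against 439 and 415 in WT livers. Fdft1 did not overlap between the groups, and Lss did, because its het replicate 2 lay between the WT values.

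After lanosterol, Tm7sf2 had 1560 and 1297 reads in het livers, against 991 and 947 in WT livers. Unlike in TG liver, both mutant libraries were above WT (log2 fold change 0.55, SE 0.11, adjusted p = 0.0549 by limma). Hsd17b7 had 605 and 602 reads in het livers, against 491 and 435 in WT livers, and its het values were nearly equal (log2 fold change 0.38, SE 0.10, unadjusted p = 0.00500, adjusted p = 0.127 by limma). Cyp51, Nsdhl and Dhcr7 had ratios of het to WT means of 1.59, 1.98 and 1.67, and for each gene both het libraries were above both WT libraries. Sc5d also had no overlap, at 1.29-fold on the means, whereas Lbr (137 and 137 reads in het livers, against 125 and 160 in WT livers), Msmo1 and Ebp overlapped.

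The log2 fold change was below 0 for 7 of the 32 genes in het liver. For 4 enzymes, Mvk, Ggps1, Lbr and Ebp, it lay between -0.04 and -0.01 and the groups overlapped. 0610007P14Rik had 982 and 865 reads in het livers, against 1057 and 1147 in WT livers. Stard4 had 582 and 476 reads in het livers, against 639 and 609 in WT livers. Npc1 had 2024 and 2450 reads in het livers, against 3148 and 2518 in WT livers. In these last 3 genes both het values were below both WT values, by log2 fold changes of -0.26, -0.24 and -0.34, and none passed (adjusted p = 0.305, 0.378 and 0.327 by limma). Soat2 had 800 and 720 reads in het livers, against 880 and 649 in WT livers, and Tmem97 overlapped too, while Npc2 was slightly above WT in both het livers (1.08-fold on the means).

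How many het genes were called depended on the tool. DESeq2 on the recovered reads called 7 of the 32 higher (Insig2, Hmgcs1, Pmvk, Sqle, Tm7sf2, Nsdhl and Dhcr7), where it called 1.61% of all genes higher. A fit without either het replicate leaves 1 het library, so the spread between het libraries cannot be measured in it. Endothelial markers moved with the het group. All 12 had positive log2 fold changes and limma called 2 of them, where it called 1.44% of all genes. Their summed reads were 6450 and 6601 in het livers, against 5386 and 5692 in WT livers. All 3 measured mesothelial markers had lower means, 2 of them called, with sums of 43.1 and 54.1 reads in het livers, against 166 and 192 in WT livers. The part of these markers in the sterol result was not tested.

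By role, the medians of the log2 fold changes in TG liver were 0.20 for SREBP2 control, 0.88 for the mevalonate steps, 1.05 for squalene to lanosterol, 0.62 for lanosterol to cholesterol and 0.22 for handling. In het liver they were 0.06 for SREBP2 control, 0.63 for the mevalonate steps, 0.33 for squalene to lanosterol, 0.36 for lanosterol to cholesterol and 0.01 for handling. The enzyme groups stood above the control and handling groups in both sets of medians, as a description without a test. In TG liver that order came from replicate 1: in TG replicate 2 the median difference from the WT mean was -0.03 for the mevalonate steps, 0.09 for squalene to lanosterol and -0.05 for lanosterol to cholesterol, and 0.16 for SREBP2 control and 0.13 for handling.

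**Figure D3:**
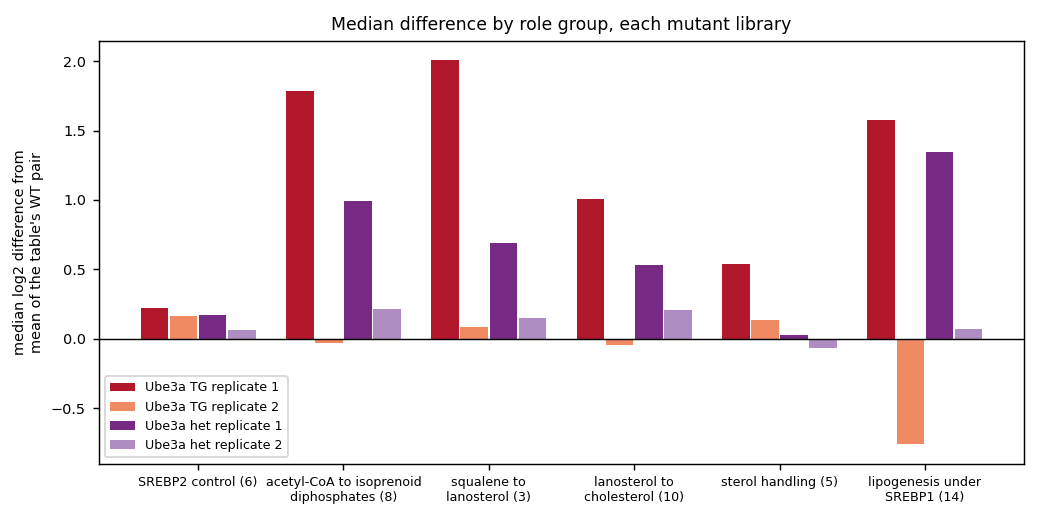
Bars give the median log2 difference from the WT mean over the genes of each role group (number of genes in brackets), for each mutant library, with 14 lipogenic genes for comparison. TG replicate 1 has the tallest bar in every sterol group, TG replicate 2 is near 0 in the sterol groups and at -0.76 in the lipogenic group, and het replicate 1 is above het replicate 2 throughout.

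The 2 effects were then set against each other in 1 joint fit over 11754 genes. The difference, TG effect minus het effect, passed for 0 of the 32 genes, where 0.434% of all genes passed. At an unadjusted p under 0.05, met by 16.7% of all genes, 3 of the 32 were below: Insig2, 0610007P14Rik and Stard4. For Insig2 the difference was -1.74 on the log2 scale (SE 0.44, 95% interval -2.79 to -0.70, adjusted p = 0.156 by limma), with both TG libraries below WT and both het libraries above WT. DESeq2 called Insig2 alone among the 32 (adjusted p = 0.00256), where it called 3.16% of all genes. Without TG replicate 2, limma called 6 of the 32 (Scap, Insig1, Insig2, Sqle, 0610007P14Rik and Stard4), where it called 5.47% of all genes. For Sqle the difference was 1.08, with an SE of 1.98 that reflects the gap between the TG libraries.

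The gap between the libraries of a group was itself alike in the 2 mutants. Across the 32 genes, the log2 difference of TG replicate 1 from TG replicate 2 and that of het replicate 1 from het replicate 2 had a Pearson r of 0.80 and a Spearman rho of 0.81. Over all 11768 genes in both tables r was 0.21. Both gaps were positive for 26 of the 32 genes (81.3%), where both were positive for 27.6% of all genes. The WT pairs had smaller gaps. WT replicate 1 was above WT replicate 2 for 22 of the 32 genes in the transgenic table, with a median gap of 0.15. In the heterozygous table it was above for 18, with a median gap of 0.07. Between the mutant libraries the median gap was 0.77 in TG and 0.29 in het. The TG and het gaps share no library, but they share genes that are regulated together. Replicate numbers have no order, so the correlation is given as a description and with no p. Kupffer cell markers ran the other way in both mutants, with all 11 lower in replicate 1 than in replicate 2. In het livers they summed to 8609 and 11995 reads, against 7522 and 10200 in WT livers. The WT pair measured with the het livers had a like gap, so it was not particular to the het libraries. There 0 of the 11 were higher in WT replicate 1, with a median log2 gap of -0.50, against -0.53 between the het libraries. For the WT pair measured with the TG livers, 8 of the 11 were higher in WT replicate 1. The part of these markers in the sterol gaps was not tested. Fdps had gaps of 3.51 in TG and 1.16 in het, Mvd 3.09 and 0.80, Nsdhl 2.44 and 0.90, and Idi1 2.18 and 1.00, whereas Insig2 had -0.83 and -0.09. The genes with the widest gap in TG liver thus had wide gaps in het liver too, with Sqle as the main departure (4.36 in TG and 0.55 in het).

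**Figure D4:**
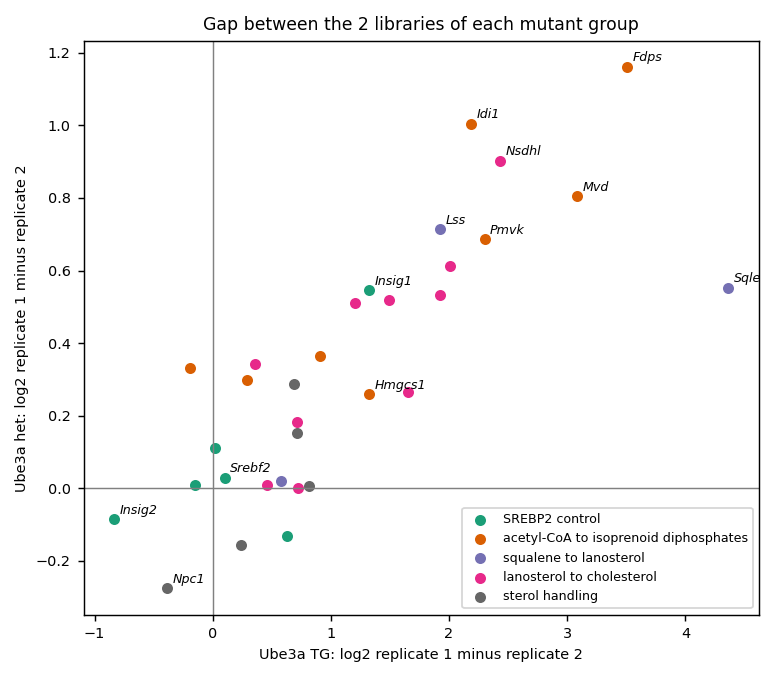
Each point is 1 of the 32 genes, coloured by role; the x axis is the log2 difference between TG replicate 1 and TG replicate 2, and the y axis the same between the het replicates. Most points lie up and to the right of both zero lines (26 of 32), with Fdps, Mvd, Nsdhl and Idi1 far out and Insig2 and Npc1 below both lines.

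A list of 14 genes around lipogenesis showed the gap as well. It includes Srebf1, the gene of SREBP1, the sister factor that SCAP and the INSIG proteins also control. Whether each gene on the list depends on SREBP1 was not tested. All 14 were higher in TG replicate 1 than in TG replicate 2, where 48.5% of all genes were. For 11 of them the gap was more than 2-fold, where it was for 4.12% of all genes. TG replicate 1 was above both WT libraries for 12, where it was for 38.2% of all genes. TG replicate 2 was below both for 10, where it was for 35.2% of all genes. Their median difference from the WT mean was 1.58 in TG replicate 1 and -0.76 in TG replicate 2, and 1.34 in het replicate 1 and 0.07 in het replicate 2. None was called in either mutant. Mlxipl, the gene of ChREBP, had 42662 and 24737 reads in TG livers, against 24252 and 22084 in WT livers, and Acacb, the mitochondrial acetyl-CoA carboxylase, had 27561 and 7346 reads in TG livers, against 10110 and 6319 in WT livers. In het livers Acacb had 6414 and 4283 reads, against 2466 and 2465 in WT livers (log2 fold change 1.09, adjusted p = 0.0678 by limma), and Me1, the malic enzyme, had 7070 and 4095 reads, against 2475 and 2780 in WT livers.

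The 3 lists around the pathway had medians nearer 0. Of 14 genes that use isoprenoids, 0 were called in either mutant, with medians of -0.14 in TG and 0.02 in het. Fntb, the beta subunit of farnesyltransferase, had 138 and 192 reads in TG livers, against 252 and 285 in WT livers (log2 fold change -0.71, adjusted p = 0.526 by limma), and Pdss2, of ubiquinone side-chain synthesis, had 314 and 342 in TG livers, against 458 and 413. In het livers Pdss2 had 140 and 135 reads, against 121 and 95.3 in WT livers, and Icmt, the prenylcysteine methyltransferase, had 725 and 692, against 626 and 577.

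The next list held 15 measured genes whose products sense sterols with INSIG, degrade HMG-CoA reductase or move SCAP. Of them 0 were called in TG and 1 in het, where 0.0% and 1.44% of all genes were. Their medians were -0.01 in TG and 0.09 in het. The called gene was Pgrmc2, a membrane-bound haem-binding protein, which had 2008 and 1647 reads in het livers, against 993 and 1166 in WT livers (log2 fold change 0.76, adjusted p = 0.0376 by limma). In TG livers its relative Pgrmc1 had 40898 and 47048 reads, against 57202 and 57455 in WT livers, and Sec24d, a COPII coat gene, had 2115 and 2951, against 2918 and 3233. Neither passed (adjusted p = 0.595 and 0.652 by limma).

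Of 22 genes of cholesterol efflux, ester turnover and bile acid synthesis, 0 were called in either mutant, with medians of -0.08 in TG and -0.08 in het. Scarb1, the HDL receptor, had 6480 and 8561 reads in TG livers, against 5079 and 5563 in WT livers, and Gramd1c, a sterol transfer protein, had 3200 and 2660, against 2143 and 2238. Both were above WT in both TG libraries without passing (adjusted p = 0.541 and 0.534 by limma). Lipa, the lysosomal acid lipase, had 5092 and 5771 reads in het livers, against 3682 and 3860 in WT livers (log2 fold change 0.52, adjusted p = 0.0683 by limma), and Cyp7b1, an oxysterol hydroxylase of bile acid synthesis, had 437 and 466, against 567 and 648 (log2 fold change -0.42, adjusted p = 0.110 by limma).

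Levels between genes were compared as normalised reads per kilobase of merged exons, over the WT means. In the transgenic table Insig1 (4401), Ebp (4377) and Sc5d (4101) led the 32 genes and Sqle (27.4), Mbtps2 (38.6) and Ggps1 (43.0) were lowest. In the heterozygous table Ebp (1744), Sc5d (985) and Tmem97 (800) led, and Mbtps2 (10.8), Sqle (13.5) and Ggps1 (15.0) were lowest. The gene with the largest fold in TG replicate 1, Sqle, was thus one of the lowest per length in WT liver.

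Exons of 12 of the 32 genes share bases with another annotated gene, at least 10% of the exon length for Fdft1, Fdps, Hmgcs1, Mbtps2, Scap and Tm7sf2. For Hmgcs1 and Scap the partner lies on the opposite strand and has only a clone name, and for Fdft1 it is Ctsb on the opposite strand. On the same strand, Mbtps2 shares 28.4% of its exon length with Yy2, Fdps 26.7% with a gene known by a clone name, and Tm7sf2 12.1% with Vps51. No source used here says whether counting used strand, so reads in the shared bases cannot be told apart. Acat2 has a close mouse paralog, Acat3, and its counts are uncertain for that reason.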

How the data were processed

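Deposited by the authors was a signal per gene, a read count over 1 factor for each library: judged from the values, 100% of entries came to whole reads within 0.001. Per the submitters' processing notes the tools were DESeq2, featureCounts and Subread 1.5.2, on GRCm38 (mm10), with no role or order given. RNA was extracted with TRIzol and libraries made with TruSeq reagents, per the labels' protocols. The smallest mean was 11.2 normalised reads in the TG table and 17.8 in the het table, and spreadsheet dates replaced 20 and 18 gene names, which stayed in the tests unnamed.

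Values were taken to log2(value + 1), on which scale fold changes of low genes are understated. Tests were run in R 4.3.3 with limma 3.58.1, by lmFit and an eBayes step that was robust and trended, over all genes of a table; the difference of effects was fitted over all 8 libraries. edgeR 4.0.16, DESeq2 1.42.0 and voom were run on recovered reads as alternatives. The limma and edgeR fits, but not DESeq2 or voom, were tested on simulated counts with 200 changed genes. Every gene was given the same spread there, which does not mimic the gap between the TG libraries. The members, lists and tests were chosen with earlier results of these data known. Printed per library by rule were called genes, the 3 of smallest p per comparison, the 2 of smallest p per role and comparison, and Srebf2; Insig1, Fdps, Mvd, Cyp51, Nsdhl, Dhcr7 and the single folds of other members were added after their values were seen. Positions and exons are from GENCODE M21 on GRCm38. The number of libraries, 2 per group, limits the precision, and counting error adds to it for the lowest members: the fewest recovered reads behind a value were 54, for Ggps1 in the het table.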

Additional observations from a re-analysis of the deposited data

Results flagged for a closer look

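For 3 of the 32 genes, both libraries of one mutant lay on one side of their WT pair and both libraries of the other mutant on the other side, which 15.1% of all genes in both tables did as well, so the count itself does not stand above the background. For Insig2, both TG libraries were below and both het libraries above, and the TG effect minus the het effect was -1.745 on the log2 scale (SE 0.44, adjusted p = 0.156 by limma). For 0610007P14Rik, both TG libraries were above and both het libraries below, with a difference of 0.8814 (SE 0.30, adjusted p = 0.218 by limma). For Stard4, also above in TG and below in het, the difference was 1.06 (SE 0.37, adjusted p = 0.233 by limma). None of these differences passed the test over all genes.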

How the results depend on the processing

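Of the 32 genes, the number called between TG and WT was 0 and ran from 0 to 10 when single libraries were left out. Between het and WT it was 1. It was 7 by DESeq2, 0 with all 8 libraries in 1 fit and 2 with the replicate number as a block (Hmgcs1 and Sqle, among 138 of all genes), and ran from 0 to 5 when single libraries were left out. For the difference of effects it was 0, was 1 by DESeq2, and ran from 0 to 6 when single libraries were left out. A lone library left in a group was assumed to vary like the others. The median log2 fold change ran from 0.04 to 0.93 in TG and from 0.11 to 0.34 in het. The causes of these shifts were not tested.

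Over all genes, TG calls were 0, but 188 by DESeq2 (97 higher and 91 lower), 25 with all 8 libraries in 1 fit, and 0 to 146 leaving libraries out; edgeR and voom called 0. Het calls were 169, but 289 by DESeq2, 87 by edgeR, 82 by voom, 93 without the robust option, 138 with the replicate block, 0 with all 8 libraries, and 61 to 173 leaving libraries out. Calls for the difference were 51, but 371 by DESeq2, 31 by voom, and 5 to 643 leaving libraries out. At an unadjusted p under 0.05, 710 genes were higher and 546 lower in TG.

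Of the 32 genes, those whose log2 fold change turned sign when single libraries were left out ran, in TG, from -0.11 to 1.21 for Hmgcs1, -0.24 to 2.84 for Mvd, -0.14 to 3.37 for Fdps, -0.093 to 4.27 for Sqle, -0.61 to 1.04 for Tm7sf2, -0.34 to 2.10 for Nsdhl, -0.23 to 1.69 for Dhcr7, -0.043 to 0.75 for Ggps1, -0.11 to 0.80 for Acat2, -0.10 to 0.26 for Ebp, -0.28 to 0.54 for Tmem97, -0.80 to 0.69 for Sc5d, -0.15 to 0.14 for Npc2, -0.068 to 0.096 for Mbtps1 and -0.063 to 0.078 for Mbtps2. In het they ran from -0.21 to 0.23 for Soat2, -0.049 to 0.082 for Scap, -0.25 to 0.30 for Insig1, -0.028 to 0.69 for Lss, -0.17 to 0.12 for Mvk, -0.19 to 0.14 for Ggps1, -0.22 to 0.13 for Lbr, -0.058 to 0.45 for Msmo1, -0.18 to 0.16 for Ebp, -0.011 to 0.44 for Tmem97 and -0.064 to 0.12 for Mbtps1. For the difference of effects, examined in this way for Insig2, 0610007P14Rik, Stard4, Hmgcs1 and Sqle, they ran from -1.10 to 3.27 for Sqle and -0.90 to 0.42 for Hmgcs1. In het, Soat2 also turned to -0.012 by edgeR, -0.0083 by DESeq2 and -0.011 with the 20 most abundant genes left out of the library size, where Scap turned to -0.00075. In TG, Sc5d turned to 0.127 by edgeR and 0.128 by DESeq2, and with the 20 most abundant genes left out Mbtps1 turned to -0.019 and Mbtps2 to -0.026.

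Replicate numbers were not taken to pair libraries: there are 2 pairs per comparison, and same-numbered deviations correlated at 0.107 in TG and -0.043 in het. The replicate block gave 0 calls among the 32 genes in TG, 2 in het (adjusted p = 0.0419 for Sqle by limma) and 0 for the difference.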
